A study of Homo sapiens with 12 samples.

Results

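The genes described are 10 members of the ETS family of transcription factors, namely ETV1, ETV4, ETV5, ELF1, ELF3, EHF, ERF, ETS2, ELK1 and ELK4. They were chosen by gene symbol from the 63568 genes of a TPM table (a transcript level per gene length, scaled to the same total in every library), and each symbol matched 1 gene. Of the 10 genes, 7 reached 1 TPM in at least 2 libraries and were tested, together with 16337 genes in all. ETV1, ETV4 and ETV5 stayed below that limit. The values come from LNCaP, prostate cancer cells established from a lymph node metastasis that respond to androgen, in which SMARCA4 was depleted with siRNA. SMARCA4 encodes BRG1, an ATPase of the SWI/SNF chromatin remodelling complex.

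All cells were LNCaP and all were transfected. Controls received a pool of non-targeting siRNA (si-NT), with 2 libraries at 72 h and 2 at 144 h. BRG1 depleted cells received 1 of 2 single siRNAs against SMARCA4, with 2 libraries for each siRNA at each time point, so that 4 depleted libraries stood against 2 si-NT libraries. Cells of the 144 h groups had been harvested at 72 h, split and transfected again. The siRNAs are named 2 and 3 as in the deposited table, whereas the labels number them otherwise, and values of 4 depleted libraries are always given in the order siRNA 2 replicates 1 and 2, siRNA 3 replicates 1 and 2. The labels do not say whether replicates were separate cultures, so each p-value measures the spread between these libraries, which may be technical.

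ETS proteins share a DNA-binding domain that recognises a short core of G, G, A and A, and they differ in the domains around it and in the tissues that use them. EHF, ELF3, ELF5 and SPDEF are found mainly in epithelia, where they take part in the differentiation of secretory and luminal cells. ETV1, ETV4 and ETV5 form the PEA3 group, which is driven by fusion or rearrangement in a subset of prostate cancers, and ETV1 is known to be rearranged in LNCaP. ELK1 and ELK4 bind DNA with serum response factor and are activated by the kinase ERK, ERF is a repressor that ERK removes from the nucleus, and ELF1 and ETS2 are broadly expressed activators.

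SMARCA4 fell in every depleted library, from 73.4 to 107 TPM in the 4 si-NT libraries to 11.4 to 21.7 TPM in the 8 depleted libraries. Its log2 fold change was -2.07 at 72 h (adjusted p = 0.000538) and -2.66 at 144 h (adjusted p = 1.01e-05). The labelled cell type was checked against 11 prostate luminal markers, all of which reached 1 TPM, and their summed level was 2147 to 3114 TPM over the 12 libraries. The 4 basal epithelial, 5 leukocyte and 2 endothelial markers each stayed below 1 TPM in every library, and of 5 fibroblast markers 1, COL1A1, passed 1 TPM. Each library had 14706 to 15355 genes at 1 TPM or more, and spike-in RNA made up 0.805% to 1.97% of each library's TPM. Between replicates this share differed most at 144 h, with 0.805% and 1.34% in si-NT cells and 1.325% and 1.97% with siRNA 3. Scaling to the spike-ins carries this spread, and its part in lost calls was not tested. All values are levels in bulk RNA, in which fewer cells that express a gene and less RNA of it per cell cannot be told apart.

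The promoter sequences of the 4 epithelial ETS genes are shown because these genes hold the 4 largest fold changes among the ETS genes tested at 144 h. Each is the 250 bases before a transcription start in RefSeq (GRCh38.p14), written 5′ to 3′ on the gene's strand. Capitals mark each GGAA core, the letters common to ETS sites, on either strand, so that TTCC marks the core on the other strand.
EHF, first start, chr11:34624007-34624256, plus strand: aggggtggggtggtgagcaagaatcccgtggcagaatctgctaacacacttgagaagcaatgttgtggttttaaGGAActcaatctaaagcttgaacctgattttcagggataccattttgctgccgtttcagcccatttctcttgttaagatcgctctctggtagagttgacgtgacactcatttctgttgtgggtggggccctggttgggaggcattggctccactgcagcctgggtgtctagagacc
EHF, second start, chr11:34632316-34632565, plus strand: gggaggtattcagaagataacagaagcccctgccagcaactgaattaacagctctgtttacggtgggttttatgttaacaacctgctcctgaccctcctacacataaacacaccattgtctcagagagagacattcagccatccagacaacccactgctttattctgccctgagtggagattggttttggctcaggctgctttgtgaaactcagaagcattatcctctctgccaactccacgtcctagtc
ELF3, chr1:202010337-202010586, plus strand: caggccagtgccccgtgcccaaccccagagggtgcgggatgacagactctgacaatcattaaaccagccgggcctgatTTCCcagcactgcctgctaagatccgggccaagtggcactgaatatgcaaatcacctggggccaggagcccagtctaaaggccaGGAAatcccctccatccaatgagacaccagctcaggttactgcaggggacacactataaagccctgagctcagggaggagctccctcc
ELF5, chr11:34511725-34511974, minus strand: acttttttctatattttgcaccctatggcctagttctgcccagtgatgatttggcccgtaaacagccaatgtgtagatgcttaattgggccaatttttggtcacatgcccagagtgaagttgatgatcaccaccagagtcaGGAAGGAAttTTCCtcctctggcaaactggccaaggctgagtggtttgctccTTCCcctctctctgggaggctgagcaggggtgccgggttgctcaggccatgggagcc
SPDEF, chr6:34556330-34556579, minus strand: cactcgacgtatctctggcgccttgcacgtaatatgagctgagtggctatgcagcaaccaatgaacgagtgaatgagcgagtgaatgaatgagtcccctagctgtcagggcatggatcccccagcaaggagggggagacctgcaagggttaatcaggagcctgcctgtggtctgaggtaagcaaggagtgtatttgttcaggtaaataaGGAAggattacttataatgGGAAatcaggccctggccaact
The windows held 1 and 0 cores at the first and second EHF start, 2 at ELF3, 4 at ELF5 and 2 at SPDEF. A core of 4 letters is common, and 92.7% of all 35116 promoter windows of this length held at least 1, with a median of 3. The second EHF window was among the 7.26% without one. The longer site CCGGAAGT, searched on both strands and overlapping the core by construction, was present in 3.42% of all windows and in none of these 5. A match of letters is no measurement of binding, and binding was not analysed here. Windows were found for 22 of 28 ETS family genes, 8 of the 10 described here among them.

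In si-NT cells the 10 genes spanned the range from abundant to listed at 0. EHF (chr11:34642640-34684835 on GRCh37, plus strand), at 135 to 189 TPM over the 4 si-NT libraries, was the highest of them, and it was also the highest of all 28 ETS family genes in each of these libraries. ELF3 (chr1:201977073-201986311, plus strand) came next at 63.0 to 115 TPM. ELK1 (29.0 to 36.3 TPM), ELK4 (17.7 to 18.9 TPM) and ERF (13.99 to 16.8 TPM) followed in that order, and no neighbours in the order overlapped so far. ELF1 (8.23 to 8.35 TPM) and ETS2 (6.03 to 8.64 TPM) overlapped and were not separated. ETV5 (0.02 to 0.27 TPM), ETV4 (0 to 0.06 TPM) and ETV1 (listed at 0) overlapped likewise at the bottom. TPM is per gene length, so these are comparisons of levels between genes.

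ETV1 (chr7:13930854-14031050, minus strand) was listed at 0.00 TPM in all 12 libraries, in si-NT and BRG1 depleted cells alike. ETV1 RNA is known from other work to be expressed in LNCaP, and whether its row in the table is complete was not tested, so the 0 is given as listed and not as absence of ETV1 RNA. TPM keeps no read depth, so no upper limit can be attached to the 0. A value of 0 in every library was shared by 2336 of 19488 protein-coding genes in the table (12%). None of 122 genes of 3 families used by every cell (subunits of respiratory complex I, of RNA polymerase II and of the mitochondrial ribosome) was listed at 0 in every library. Because ETV1 has no variation, no gene's pattern can be compared with it.

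Genes near ETV1 were detected at both the places it is known from. On chromosome 7, DGKB, a diacylglycerol kinase beside ETV1, was at 1.50 to 1.96 TPM over the 12 libraries. On chromosome 14, where the rearranged ETV1 is known to lie in LNCaP, MIPOL1, the gene that receives it, was at 6.91 to 14.2 TPM and FOXA1, a pioneer factor of luminal cells, at 160 to 240 TPM. None of these 3 genes passed the test at either time point (adjusted p of at least 0.128), and their depleted and si-NT libraries overlapped. Of 10 genes listed around ETV1 on chromosome 7, 5 were tested, 0 changed at 72 h and 1 rose at 144 h, and of 15 around the chromosome 14 site 11 were tested, 0 changed at 72 h, and 1 rose and 1 fell at 144 h. At 144 h 24.4% of all genes were called, so neither count stands above the background. The gene that rose on chromosome 7 was TMEM106B, a lysosomal membrane protein (log2 fold change 0.63, SE 0.191, adjusted p = 0.033). On chromosome 14 SEC23A, a coat protein of secretory vesicles, rose by 0.46 on the log2 scale (adjusted p = 0.0233) and PNN, a splicing-associated protein, fell by 0.36 (adjusted p = 0.0288). Each of these 3 calls was lost when either si-NT library at 144 h was left out and with scaling to the spike-ins.

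The other genes of the PEA3 group had values near 0. ETV4 (chr17:41605212-41656988, minus strand) was between 0 and 0.11 TPM over the 12 libraries. ETV5 (chr3:185764103-185828107, minus strand) was between 0.02 and 0.53 TPM, with its 2 highest values, 0.53 and 0.48 TPM, in replicate 2 of each siRNA at 72 h. Neither was tested, and no fold change is given for levels this low. Of the ETS genes that are fused in other prostate cancers, ERG was at 0 to 0.11 TPM and FLI1 at 0 to 0.02 TPM.

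At 72 h none of the 7 tested genes changed at an adjusted p under 0.05, where 1.68% of all 16337 genes tested did, 1.13% higher and 0.557% lower. By unadjusted p under 0.05 there were 2 of 7, EHF and ELK4, beside 14.3% of all genes. At 144 h 2 of the 7 changed, EHF downward and ELF3 upward, where 24.4% of all genes were called, 13.6% higher and 10.8% lower. The share of the members called is near that background. The median log2 fold change of the 7 genes was 0.11 at 72 h and 0.16 at 144 h, beside 0.06 and 0.03 for all genes tested. The study's results set a further limit of 1.5 on the log fold change, and EHF at 144 h alone among the 7 genes passed it. Its methods instead word the limit as a fold change of 1.5, with a stricter limit on the adjusted p. ELF3 at 144 h (adjusted p = 0.0117) did not pass the latter.

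EHF carried the largest change among the 7 genes. At 72 h its level was 154 and 135 TPM in si-NT cells and 63.8, 97.7, 97.1 and 62.8 TPM in BRG1 depleted cells. At 144 h it was 189 and 149 TPM in si-NT cells and 54.8, 53.5, 43.8 and 23.5 TPM in depleted cells. At both time points every depleted library lay below the si-NT libraries, and each depleted library at 144 h also lay below each depleted library at 72 h. The log2 fold change at 144 h was -1.98 (SE 0.306, adjusted p = 0.00129), with means of 168.9 ± 28.5 TPM (SD, n = 2) in si-NT and 43.9 ± 14.5 TPM (SD, n = 4) in depleted cells, which is 74.0% lower. At 72 h it was -0.87 (SE 0.306, adjusted p = 0.199) and did not pass the test, although the libraries did not overlap, as in 6.93% of all genes in that direction. It passed at 72 h against a joint control of all 4 si-NT libraries (log2 fold change -0.98, adjusted p = 0.0314), as did 7.38% of all genes. That control mixes time points, and the si-NT mean of EHF was 144.7 TPM at 72 h and 168.9 TPM at 144 h.

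The fall of EHF at 144 h was called in each of the 23 alternative fits, with adjusted p-values from 0.000156 to 0.0206. Leaving out 1 library at a time gave log2 fold changes from -2.15 to -1.71. Scaling to the spike-ins gave -2.37 (adjusted p = 0.00247), or -2.06 relative to the median of all genes under that scaling, which lay at -0.31. The level in si-NT cells was 0.22 higher on the log2 scale at 144 h than at 72 h (adjusted p = 1), and in depleted cells it was lower by a log2 difference of -0.90 (adjusted p = 0.0682). The difference between the 2 fold changes, -1.11 (SE 0.433), did not pass the test (adjusted p = 0.358), and 0.0184% of all genes passed it.

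ELF3 moved in the opposite direction at 144 h. At 72 h its level was 77.3 and 115 TPM in si-NT cells and 118, 167, 99.9 and 79.2 TPM in BRG1 depleted cells. At 144 h it was 67.8 and 63.0 TPM in si-NT cells and 182, 141, 118 and 128 TPM in depleted cells. The libraries overlapped at 72 h and were separate at 144 h, where every depleted library was above all 4 si-NT libraries. The log2 fold change was 1.09 at 144 h (SE 0.261, adjusted p = 0.0117), with means of 65.4 ± 3.40 TPM in si-NT (SD, n = 2) and 142.3 ± 27.97 TPM in depleted cells (SD, n = 4), and 0.25 at 72 h (SE 0.261, adjusted p = 0.74). The call at 144 h was lost without si-NT replicate 1 (adjusted p = 0.0628) or without si-NT replicate 2 (adjusted p = 0.103) of that time point, when 1 control library remained and was assumed to vary like the other groups. It was lost also with scaling to the spike-ins, where the log2 fold change was 0.69 (adjusted p = 0.241), or 1.01 above the median of all genes.

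**Figure D1:**
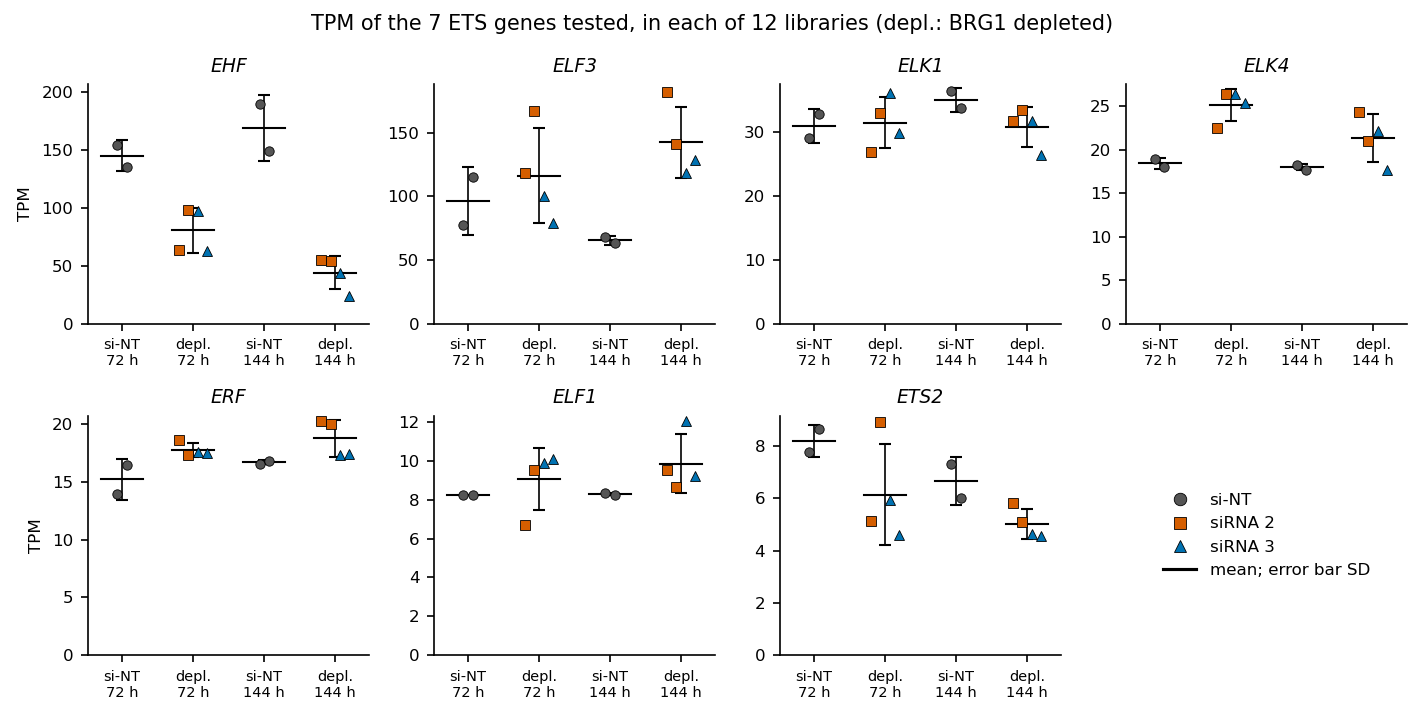
TPM of the 7 tested ETS genes in each of 12 libraries (vertical axis, from 0), by group, with grey circles for si-NT, orange squares for siRNA 2 and blue triangles for siRNA 3, a line at the mean and an error bar of 1 SD. The 4 depleted libraries at 144 h sit between 23.5 and 54.8 TPM for EHF, below all si-NT libraries, and between 118 and 182 TPM for ELF3, above all si-NT libraries.

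The ternary complex factors ELK1 and ELK4 did not pass the test at either time point. ELK4 (chr1:205566684-205601139, minus strand) was at 18.92 and 18.02 TPM in si-NT cells at 72 h and at 22.5, 26.5, 26.4 and 25.4 TPM in depleted cells, without overlap. At 144 h it was at 18.2 and 17.7 TPM in si-NT cells and at 24.4, 21.1, 22.1 and 17.7 TPM in depleted cells, with replicate 2 of siRNA 3 level with si-NT. Its log2 fold change was 0.43 at 72 h (SE 0.120, adjusted p = 0.12) and 0.23 at 144 h (SE 0.120, adjusted p = 0.198). Against the joint control of 4 si-NT libraries, ELK4 was called at 72 h (log2 fold change 0.44, adjusted p = 0.0157), as were 7.38% of all genes. ELK4 lies downstream of SLC45A3 on the same strand, and read-through RNAs that join them are known in prostate cancer, which values per gene do not separate. ELK1 (chrX:47494920-47510003, minus strand) ranged from 26.3 to 36.3 TPM over all libraries, with log2 fold changes of 0.02 at 72 h (adjusted p = 0.968) and -0.18 at 144 h (adjusted p = 0.333). Its 4 depleted libraries at 144 h, 26.3 to 33.3 TPM, lay just below the si-NT libraries at 33.6 and 36.3 TPM.

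The repressor ERF (chr19:42751721-42759280, minus strand) was at 13.99 to 16.8 TPM in si-NT cells and 17.4 to 20.3 TPM in depleted cells. Depleted and si-NT libraries did not overlap at either time point, but neither difference passed the test, with log2 fold changes of 0.21 at 72 h (adjusted p = 0.372) and 0.16 at 144 h (adjusted p = 0.291). ELF1 (chr13:41506060-41635576, minus strand) was at 8.23 to 8.35 TPM in si-NT cells and at 6.70 to 12.1 TPM in depleted cells, with log2 fold changes of 0.11 (adjusted p = 0.83) and 0.21 (adjusted p = 0.375). With scaling to the spike-ins the sign at 144 h turned for ELF1 (-0.15), ERF (-0.22) and ELK4 (-0.16), while all 3 stayed above the median of all genes under that scaling, by 0.16, 0.09 and 0.16. ETS2 (chr21:40177107-40196879, plus strand) was at 6.03 to 8.64 TPM in si-NT cells, 4.59 to 8.92 TPM in depleted cells at 72 h and 4.54 to 5.81 TPM at 144 h. Its log2 fold changes were -0.40 (adjusted p = 0.401) and -0.35 (adjusted p = 0.23). Against the joint control it passed at 144 h (-0.49, adjusted p = 0.0418), as did 30.7% of all genes. That control mixes time points, and the si-NT mean of ETS2 was 8.21 TPM at 72 h and 6.67 TPM at 144 h.

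Counted by libraries, 3 of the 7 genes had depleted and si-NT groups that did not overlap at 72 h and 6 of 7 at 144 h. In all genes tested such separation occurred in 23.3% at 72 h (16.3% above and 6.93% below si-NT) and 48.6% at 144 h (26.1% above and 22.5% below). At 72 h ERF and ELK4 lay above and EHF below, and at 144 h ELF1, ELF3 and ERF lay above and EHF, ETS2 and ELK1 below. None of the 7 genes passed the test of the difference between the fold changes at the 2 time points, and 2 of 7 had an unadjusted p under 0.05, beside 11.9% of all genes. Between 72 h and 144 h within si-NT cells 0 of 7 passed, as did 0% of all genes, with an unadjusted p under 0.05 in 0 of 7 and in 4.11% of all genes. Within depleted cells 0 of 7 passed where 4.27% of all genes did, and 2 of 7, EHF and ELK4, had an unadjusted p under 0.05, beside 21.9% of all genes.

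At 144 h EHF fell and ELF3 rose with each siRNA. For EHF at 144 h, the log2 fold change against si-NT was -1.61 with siRNA 2 (SE 0.306, adjusted p = 0.00725) and -2.35 with siRNA 3 (SE 0.306, adjusted p = 0.0018). For ELF3 at 144 h it was 1.28 with siRNA 2 (adjusted p = 0.0047) and 0.90 with siRNA 3 (adjusted p = 0.0214). The siRNAs themselves differed by -0.74 for EHF (SE 0.306, adjusted p = 0.351) and by -0.38 for ELF3 (SE 0.222, adjusted p = 0.492) at 144 h, siRNA 3 minus siRNA 2. At 72 h the ELF3 values had opposite signs, with a log2 fold change against si-NT of 0.57 with siRNA 2 (adjusted p = 0.229) and -0.083 with siRNA 3 (adjusted p = 0.927). The siRNAs differed there by -0.66 (SE 0.222, adjusted p = 0.464), with 118 and 167 TPM under siRNA 2 and 99.9 and 79.2 TPM under siRNA 3. No gene of the 7 passed the test between siRNAs at either time point, where 0.141% of all genes did at 72 h and 0.331% at 144 h. The siRNA of 1 library at 72 h is labelled in conflicting ways, which leaves its group unaffected.

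Of 18 further ETS family genes 11 were tested, 1 rose at 72 h, and 2 rose and 1 fell at 144 h, where 1.68% and 24.4% of all genes were called, so that the share at 144 h is near the background. ELF5 and SPDEF, the other epithelial members, were those that rose. ELF5, a factor of alveolar differentiation in the mammary gland, was at 15.6 and 15.1 TPM in si-NT cells at 144 h and at 35.9, 36.5, 36.6 and 31.3 TPM in BRG1 depleted cells. At 72 h it was at 16.99 and 14.28 TPM in si-NT cells and at 24.0, 24.6, 22.2 and 21.5 TPM in depleted cells. Depleted libraries were above si-NT at both times, with log2 fold changes of 0.54 at 72 h (SE 0.104, adjusted p = 0.0305) and 1.14 at 144 h (SE 0.104, adjusted p = 5.82e-05). The call at 72 h was lost in 10 of 23 alternatives, among them each of the 6 fits that left out a library of that time point (adjusted p from 0.0564 to 0.227).

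SPDEF, a factor of secretory epithelium that binds with the androgen receptor, was at 100.1 and 100.6 TPM in si-NT cells at 72 h and 120.5, 140.03, 144 and 119 TPM in depleted cells. At 144 h it was at 89.3 and 81.8 TPM in si-NT cells and 157, 179, 151 and 168 TPM in depleted cells. Its depleted libraries were above si-NT at both time points, and the log2 fold change was 0.38 at 72 h (adjusted p = 0.103) and 0.93 at 144 h (SE 0.102, adjusted p = 0.00019). With scaling to the spike-ins the calls of ELF5 (0.75, adjusted p = 0.165) and SPDEF (0.53, adjusted p = 0.311) at 144 h were lost, with values of 1.06 and 0.84 above the median of all genes. SPIC, a factor of macrophages seen here at 2.23 to 6.62 TPM, had a log2 fold change of -0.80 at 144 h (SE 0.203, adjusted p = 0.0152). Its mean was 3.73 TPM in si-NT and 3.298 TPM in depleted cells at 72 h, and 5.835 and 2.917 TPM at 144 h. From 72 h to 144 h it rose by 0.52 in si-NT cells (adjusted p = 0.974) and changed by -0.11 in depleted cells (adjusted p = 0.732). Its call was lost without si-NT replicate 2 of 144 h, where the log2 fold change was -0.635.

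**Figure D2:**
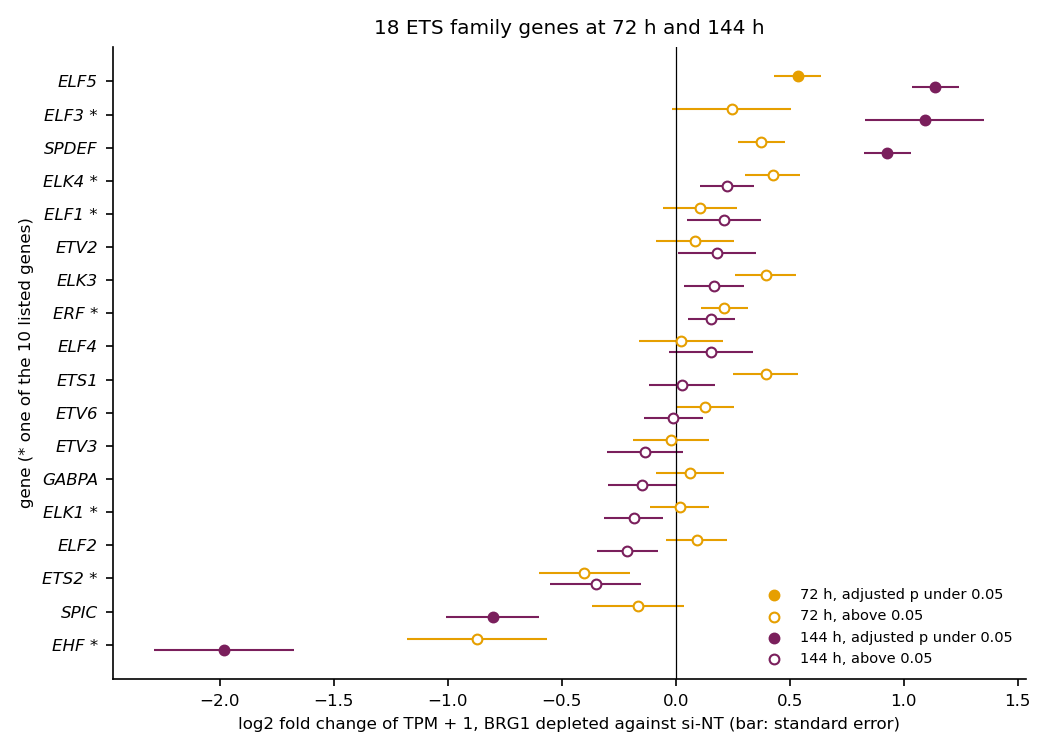
Log2 fold change of TPM + 1 between BRG1 depleted and si-NT cells (horizontal axis) at 72 h (orange) and 144 h (purple) for the 18 tested ETS family genes, with bars of 1 standard error, filled where the adjusted p was under 0.05, and stars at the 7 genes of the list described. At 144 h ELF5, ELF3 and SPDEF stand at 0.93 or higher and EHF at -1.98, with SPIC the other gene below 0 that is filled.

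The summed TPM of all 28 family genes was 451 to 511 TPM in si-NT cells, 428 to 594 TPM in depleted cells at 72 h and 474 to 581 TPM at 144 h, and these ranges overlapped. The epithelial genes EHF, ELF3, ELF5 and SPDEF made up 66.1% to 74.1% of this sum in every library, and the split among them differed between groups. EHF made up 26.7% to 37.0% of the family's TPM in si-NT cells, 13.7% to 18.6% in depleted cells at 72 h and 4.96% to 9.58% at 144 h. SPDEF made up 17.5% to 20.7%, 23.6% to 27.9% and 27.1% to 35.5% in the same groups, and ELF3 13.3% to 22.6%, 18.5% to 28.2% and 23.9% to 31.3%. EHF had rank 1 of the 28 genes in each of the 4 si-NT libraries, and rank 3 in the depleted libraries except replicate 2 of siRNA 3 at 144 h, where it had rank 5. The ratio of ELF3 to EHF, per length, was 0.358 to 0.849 in si-NT cells and 2.64 to 5.46 in depleted cells at 144 h. Shares sum to a whole, so a fall of EHF raises the others by itself, and the levels given above are the measure of each gene.

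**Figure D3:**
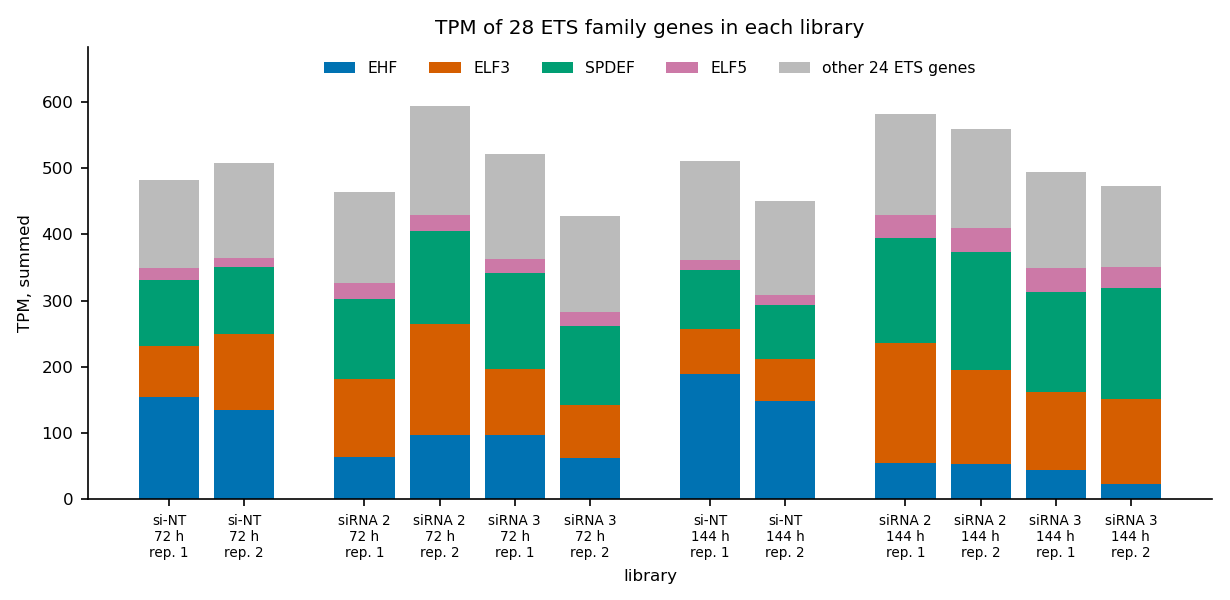
Summed TPM of 28 ETS family genes (vertical axis, from 0) in each of 12 libraries, stacked as EHF (blue), ELF3 (orange), SPDEF (green), ELF5 (pink) and the other 24 genes (grey). The blue part is 135 to 189 TPM in the 4 si-NT libraries and 23.5 to 54.8 TPM in the 4 depleted libraries at 144 h, while the whole bar stays between 428 and 594 TPM.

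EHF and ELF5 are neighbours on chromosome 11, which set their opposite changes side by side. Their annotated starts lie 95.9 kb apart on GRCh37 and point away from each other, with ELF5 (chr11:34500338-34546740) on the minus strand. The promoter windows shown above use other starts, from RefSeq, so this distance does not apply to them. The genes within 500 kb of EHF were examined after their values had been seen. Of 18 such genes 7 were tested, and at 144 h 4 rose and 1 fell, where 13.6% of all genes were called higher and 10.8% lower. ABTB2, whose protein has ankyrin and BTB domains, was at 10.3 and 11.3 TPM in si-NT cells and at 25.7 to 31.8 TPM in depleted cells at 144 h (log2 fold change 1.33, adjusted p = 0.00203). CAT, the catalase that breaks down hydrogen peroxide, rose by 0.56 on the log2 scale (adjusted p = 0.00124), from 83.1 to 123.2 TPM in the mean. PDHX, a subunit of the pyruvate dehydrogenase complex, rose by 0.78 (adjusted p = 0.000404).

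NAT10, an RNA acetyltransferase at the far end of the window, fell by 0.46 (adjusted p = 0.00984), with 36.5 and 37.3 TPM in si-NT cells and 23.5 to 28.9 TPM in depleted cells. APIP, an enzyme of methionine salvage, had a log2 fold change of 0.12 (adjusted p = 0.732), and it overlaps PDHX on the other strand, so that reads in the overlap can be told apart by strand alone. CD44, a surface receptor beyond PDHX, was at 0 to 0.11 TPM and was not tested. Scaling to the spike-ins ended the calls of ABTB2 (0.95, adjusted p = 0.0769), CAT (0.16, adjusted p = 0.77), PDHX (0.38, adjusted p = 0.424) and NAT10 (-0.85, adjusted p = 0.126), while that of EHF held. The call of NAT10 was lost also without si-NT replicate 1 or 2 at 144 h (adjusted p = 0.0779 and 0.0789).

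**Figure D4:**
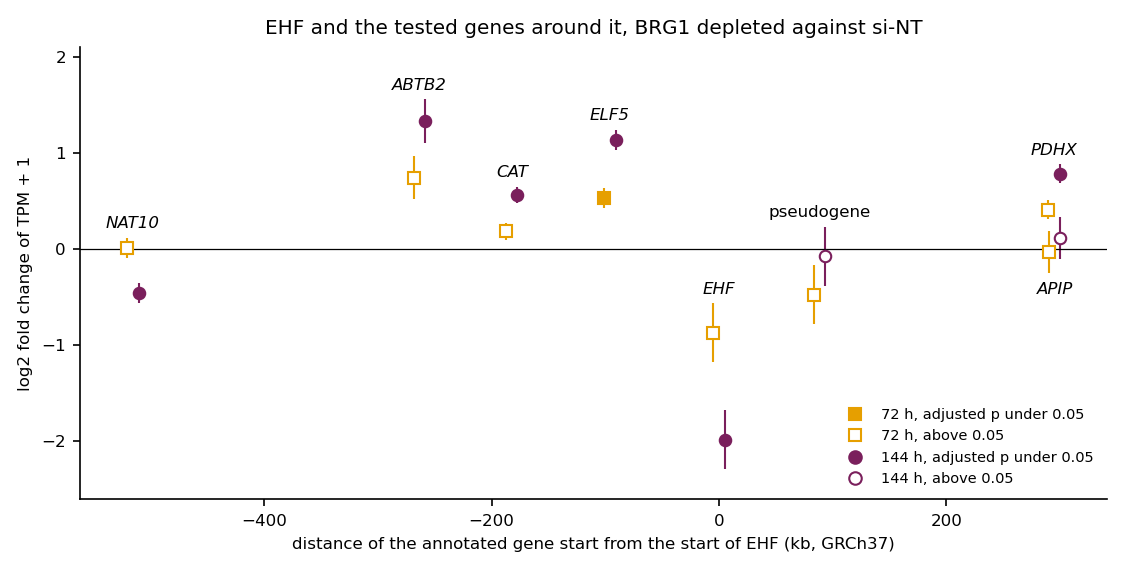
Log2 fold change of TPM + 1 (vertical axis, bars of 1 standard error) for EHF and the 7 tested genes around it against the distance of each annotated start from that of EHF in kb (horizontal axis), at 72 h (orange squares) and 144 h (purple circles), filled where the adjusted p was under 0.05. EHF is lowest at -1.98 while ELF5, CAT, ABTB2 and PDHX stand at 0.56 to 1.33 at 144 h.

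Genes that respond to ERK, through which several ETS proteins are regulated, moved in both directions at 144 h. Of 17 such genes 9 were tested, 1 rose at 72 h, where 1.68% of all genes were called, and 2 rose and 3 fell at 144 h, where 24.4% were. Their median log2 fold change at 144 h was -0.24, beside 0.03 for all genes. SPRY4, a feedback inhibitor of receptor tyrosine kinase signalling, was at 0.20 and 0.08 TPM in si-NT cells at 144 h and at 3.64, 2.90, 1.79 and 3.11 TPM in depleted cells, and it stayed between 0.08 and 0.36 TPM in all libraries at 72 h. It passed the filter on low values through the 4 depleted libraries at 144 h alone, where it is high, so it had to differ, and no test of it is given. Without it, 1 gene rose and 3 fell at 144 h. EPHA2, an ephrin receptor, rose from a mean of 2.79 to 4.55 TPM at 72 h (log2 fold change 0.55, adjusted p = 0.0437) and from 3.46 to 7.95 TPM at 144 h (1.00, adjusted p = 0.0003). Its call at 72 h held in 4 of 23 alternatives and was lost in each fit without a library of that time point, with the replicate block (adjusted p = 0.0744) and with 6 groups (adjusted p = 0.0533). The feedback inhibitor SPRED2 fell by 0.58 (adjusted p = 0.0272), the ERK phosphatase DUSP5 by 0.65 (adjusted p = 0.0387) and SPRY1 by 0.61 (adjusted p = 0.0435) at 144 h, all at levels under 8 TPM. The call held in 17 of 23 alternatives for SPRED2, 15 of 22 for DUSP5 and 11 of 22 for SPRY1. These 3 calls were lost without either si-NT library at 144 h and with scaling to the spike-ins, as was that of EPHA2 with the latter.

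Of 21 regulators and partners of ETS proteins 20 were tested, none changed at 72 h, and 3 rose and 1 fell at 144 h. By unadjusted p under 0.05 there was 1 of 20 at 72 h, beside 14.3% of all genes, and the 4 calls at 144 h compare with 24.4% of all genes, a share near the background. ATXN1, a partner of the repressor CIC, fell from 1.65 and 2.07 TPM in si-NT cells to 0.37 to 0.52 TPM in depleted cells at 144 h (log2 fold change -0.995, adjusted p = 0.00573). CIC itself, a repressor of the PEA3 group genes, rose by 0.41 (adjusted p = 0.0442), the ubiquitin ligase subunit DDB1 by 0.44 (adjusted p = 0.00997) and MAPK3, which encodes an ERK kinase, by 0.53 (adjusted p = 0.035). The call held in 9 of 23 alternatives for CIC, 20 of 23 for DDB1 and 17 of 23 for MAPK3. The call of each of these 3 was lost with scaling to the spike-ins and without either si-NT library at 144 h, and that of ATXN1 without si-NT replicate 2 (adjusted p = 0.0808).

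Of 10 listed genes, which encode extracellular proteases and a protease receptor, 8 did not pass the filter on low values. They were listed as genes with ETS sites, which were not checked here. MMP13 and PLAUR passed it through si-NT libraries alone, the group where they are high, so they had to differ, and nothing is read from a test or count of them. MMP13, a collagenase, was at 0.86 and 1.06 TPM in si-NT cells and at 0.26 to 0.40 TPM in depleted cells at 144 h. PLAUR, the urokinase receptor, was at 1.2 and 1.07 TPM in si-NT cells and at 0.19 to 0.54 TPM in depleted cells at that time.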

How the data were processed

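LNCaP RNA was sequenced from 12 libraries in 4 groups. The authors aligned reads to hg19 (GRCh37) with STAR (version 2.4.0j in the submitters' notes), counted them with featureCounts and determined TPM on GENCODE genes. The deposited TPM values sum to the same total in each library with spike-ins included, so they keep no ERCC normalisation and no read depth. Depth and counting error are therefore unknown, and replicates are the single measure of precision.

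Values were analysed as log2(TPM + 1). Genes that reached 1 TPM in 2 or more libraries were fitted with limma 3.58.1 (lmFit, eBayes with a trend, R 4.3.3) over all 12 libraries in 4 groups, and in 6 groups to compare siRNAs. Adjusted p-values are Benjamini-Hochberg values over all 16337 genes, and a gene changed when its value was under 0.05. The procedure was tested on simulated data. Named genes were the 10 members, DGKB, MIPOL1, FOXA1, SMARCA4 and, of each other list, at most 6 genes that changed at either time point. The members and lists were chosen with earlier results of these data known. The alternatives were scaling to ERCC spike-ins, quantile normalisation, size factors by median of ratios, a pseudocount of 0.1, no filter or a mean of 5 TPM, a replicate block, no eBayes trend, each time point alone, 6 groups, a joint control of all 4 si-NT libraries, and leaving out each library. Positions on GRCh37 come from GENCODE release 44 lifted over, not the release the authors used. Promoters come from RefSeq tables. The genes around EHF and the values relative to the median under ERCC scaling were chosen after seeing the data. Protein and chromatin data are outside this work.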

Additional observations from a re-analysis of the deposited data

Results flagged for a closer look

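Of 60 groups of 4 depleted libraries examined for a single distant value, over 30 genes at both time points, 2 had one, and chance gives about 1 in 20. ELF1 in siRNA 2 replicate 1 at 72 h was at 6.70 TPM, whereas the other 3 depleted libraries were at 9.53 to 10.1 TPM (gap of 0.830 of the range). ELF5 in siRNA 3 replicate 2 at 144 h was at 31.3 TPM, whereas the others were at 35.9 to 36.6 TPM (gap of 0.857 of the range), and that library was still above every si-NT library.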

How the results depend on the processing

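EHF at 144 h kept its direction and call in every alternative run. Scaling to the ERCC spike-ins, which moved the median log2 change over the genes from 0.06 to -0.11 at 72 h and from 0.03 to -0.31 at 144 h, called 752 genes at 144 h in place of 3983 (138 higher and 614 lower, against 2222 and 1761) and 32 at 72 h in place of 275 (8 higher and 24 lower, against 184 and 91). The split at 72 h was 138 higher and 147 lower with median-of-ratios and 157 and 131 with quantile normalisation. Spike-in scaling left 1 of the 7 members called at 144 h, 1 other ETS family gene (0 at 72 h), 1 regulator and 0 genes at either ETV1 site. Among ERK output genes it left SPRY4 alone at 144 h, which had to differ, and 0 at 72 h. It turned the sign of ELF1 at 72 h (-0.069), 144 h (-0.15) and in their difference (-0.082), of ERF at 144 h (-0.22), of the ETS2 difference (-0.12), of ELK1 at 72 h (-0.17), of ELK4 at 144 h (-0.16) and of APIP at 144 h (-0.27). ELK1 at 72 h turned also with median-of-ratios (-0.053), quantile normalisation (-0.03) and the joint si-NT control (-0.07). None of these values was called in any fit.

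The joint si-NT control called 2 members, 2 other family genes and 1 regulator at 72 h, and 7 regulators and 4 genes around the chromosome 14 site at 144 h. It called 1206 genes at 72 h, which is 7.38% of all genes tested, and 30.7% of them at 144 h. Quantile normalisation called 7 regulators and 5 genes of that site at 144 h, where it called 27.1% of all genes. The list of proteases and the urokinase receptor is left out of these counts, since MMP13 and PLAUR had to differ. The single ERK output gene called at 72 h, EPHA2, was lost (0) with median-of-ratios, quantile normalisation, no filter, a mean of 5 TPM, the replicate block, the time point alone and 6 groups. At 144 h the fit with no filter called 10.1% of all genes. It called 3 ERK output genes, SPRY4 among them, 2 regulators and 0 genes around ETV1 on chromosome 7. The calls of SPRED2, DUSP5 and SPRY1 were lost in it, so the 3 are not all genes called with the filter. A mean of 5 TPM left 2 ERK output genes, since low genes were no longer tested, and called 30.1% of all genes it tested. The time point alone left 0 other family genes at 72 h, with 18 genes called in all, and 0 around ETV1 on chromosome 7 at 144 h. Where no reason is given, the cause was not tested.

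Fits without a si-NT library left 1 control library at that time point, so their counts are not given. With 1 depleted library of 72 h left out, 0 other family genes and 0 ERK output genes were called at 72 h. With 1 depleted library of 144 h left out, 2 members were called at 144 h in each fit. ERK output genes called at 144 h, with SPRY4 among them, were 2 without siRNA 3 replicate 1 and 3 without its replicate 2. Regulators called were 2 without replicate 1 or replicate 2 of siRNA 2. Genes called around ETV1 were 0 on chromosome 7 without siRNA 2 replicate 1, and 1 on chromosome 14 without replicate 1 or 2 of siRNA 2. Over all fits with 1 library left out, log2 fold changes spanned -0.037 to 0.53 for ELF3 and -0.066 to 0.10 for ELK1 at 72 h. The difference between time points spanned -0.017 to 0.16 for ELF1, -0.17 to 0.055 for ERF and -0.072 to 0.22 for ETS2. The replicate block changed no call of a member, with 2 called at 144 h and 0 at 72 h, nor of another ETS family gene, and ended those of CIC at 144 h (adjusted p = 0.0581) and EPHA2 at 72 h (adjusted p = 0.0744). It called 179 genes at 72 h in all. Deviations of same-numbered replicates correlated between groups from -0.229 to 0.300, with both signs. These values neither show nor exclude that the numbers pair the samples. No read depth is known, and with 2 si-NT libraries a time point precision is low.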
